A study of Mus musculus with 17 samples.

Results

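Immediate early and stress transcription factors were followed in the heart after infarction, 10 genes in all: Fos, Fosb, Fosl2, Jun, Junb, Egr1, Atf3, Ier2, Klf4 and Klf6. The genes were chosen by name, and 10 of 10 had a feature of their own among the 31647 features of the count table. RNA was sequenced from 17 hearts of male wild-type C57BL/6J mice 5 days after surgery. In 9 mice the left anterior descending coronary artery (LAD) was permanently ligated and RNA came from the infarct zone (IZ), whereas 8 mice had sham surgery without ligation and RNA came from the left ventricle. According to the paper, organs were removed after hemodynamic measurement and cervical dislocation. The part of this procedure in the levels of the members was not tested. Sham replicates 1 to 8 and IZ replicates 1 to 9 are numbered as in the labels, and 1 library stands for 1 heart. The method, massive analysis of cDNA ends (MACE), reads 3' ends and tags each molecule, so a count stands for 1 transcript end and is not divided by transcript length.

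Immediate early genes are switched on within minutes of a stimulus without new protein synthesis, through factors such as SRF, ELK1 and CREB that are already present and are activated by kinases. FOS proteins (Fos, Fosb, Fosl1, Fosl2) pair with JUN proteins (Jun, Junb, Jund) to form AP-1, a leucine zipper dimer that binds DNA, and ATF3 is a related leucine zipper protein induced by stress. EGR1, KLF4 and KLF6 are zinc finger factors, and Ier2 encodes a small nuclear protein. In the heart these genes respond to stretch, ischemia and growth factors.

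Transcript totals ran from 1820809 to 4257919 counts in sham and from 1237675 to 4738307 in the IZ. IZ replicate 1 stood apart from the other IZ libraries, with 19.5% of its counts from mitochondrially encoded genes. The other IZ libraries held 4.22 to 6.78% and sham 22.9 to 32.4%. For members whose call changed without IZ replicate 1, the fold change without it is given. Of the cardiomyocyte markers 6 of 6 were lower in the IZ, where their summed level was 1453 to 17252 CPM (counts brought to a common library size after TMM scaling) against 40712 to 49972 CPM in sham. Of the fibroblast markers 5 of 6 were higher (9339 to 16283 against 1272 to 2412 CPM), as were 5 of 5 macrophage markers (1825 to 4994 against 332 to 486 CPM). The lowest IZ values of both sums were those of replicate 1, at 13.2 and 10.8 on the log2 scale. The other IZ libraries held 13.5 to 14.0 for fibroblast and 11.7 to 12.3 for macrophage markers. Mural markers were split, 4 higher and 2 lower (884.6 to 1766 against 449 to 718 CPM), and of 6 endothelial markers 2 were lower and the others not called (338 to 538 against 444 to 871 CPM). The neutrophil markers summed to 15.2 to 210.4 CPM in the IZ and 4.44 to 12.3 CPM in sham, with 3 of 3 tested higher, and the lymphocyte markers, none of which had enough counts to test, summed to 1.08 to 11.5 and 0 to 2.94 CPM. In such bulk tissue fewer cells of a type and less RNA per cell cannot be told apart, and the part of these cell types in the results on the members was not tested.

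The promoters of the members are shown for the pair Fos and Junb, which varied together between hearts, and for Atf3 and Fosl2, which separated the groups. Each sequence holds the 250 bases before the RefSeq transcript start, read 5′ to 3′ on the gene's strand in GRCm38.p6, and RefSeq promoters were matched for 8 members. For Atf3 and Fosl2 the RefSeq start and the whole window lie within the gene as annotated by GENCODE. Capitals mark TGACG, the core of a cAMP response element that CREB and ATF proteins bind, on either strand, and the TATA box TATAAA.
Fos, chr12:85473640-85473889, plus strand: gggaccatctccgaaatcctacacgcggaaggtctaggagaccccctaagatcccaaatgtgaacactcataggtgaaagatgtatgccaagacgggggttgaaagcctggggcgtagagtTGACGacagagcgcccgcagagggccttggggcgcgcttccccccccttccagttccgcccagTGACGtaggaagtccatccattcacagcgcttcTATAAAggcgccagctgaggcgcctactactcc
Junb, chr8:84978749-84978998, minus strand: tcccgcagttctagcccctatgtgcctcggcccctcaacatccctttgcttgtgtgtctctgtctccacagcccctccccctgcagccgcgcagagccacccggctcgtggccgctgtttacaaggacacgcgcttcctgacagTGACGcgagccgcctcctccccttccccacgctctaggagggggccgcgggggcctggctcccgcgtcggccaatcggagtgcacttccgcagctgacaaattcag
Atf3, chr1:191183334-191183583, minus strand: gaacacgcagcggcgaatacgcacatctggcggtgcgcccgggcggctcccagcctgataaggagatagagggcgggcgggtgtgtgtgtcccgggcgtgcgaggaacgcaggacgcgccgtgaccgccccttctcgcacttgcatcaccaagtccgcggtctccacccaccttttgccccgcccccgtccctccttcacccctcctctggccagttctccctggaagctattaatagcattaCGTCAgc
Fosl2, chr5:32136222-32136471, plus strand: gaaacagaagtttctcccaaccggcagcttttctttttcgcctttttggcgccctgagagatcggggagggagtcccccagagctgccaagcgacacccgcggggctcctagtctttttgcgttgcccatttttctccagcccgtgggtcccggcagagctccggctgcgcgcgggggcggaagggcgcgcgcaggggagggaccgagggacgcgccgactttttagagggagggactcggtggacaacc
On either strand TGACG was found in 5 of the 8 promoters (Atf3, Fos, Fosb, Junb and Klf4), and in 17.8% of all 32851 RefSeq promoters of the same length. In Fos it occurs at 2 places and TATAAA at 1, the latter a motif of 12.4% of all promoters. TGACATCA, a variant AP-1 site, was found in the promoters of Jun and Klf6 and in 2.93% of all. None of the 8 held the full element TGACGTCA (1.55% of all promoters), which contains TGACG, the AP-1 site TGANTCA (6.75%), the EGR site GCGTGGGCG (0.536%) or the CArG box that SRF binds (1.47%). The GC box GGGCGG was found in 7 of 8 members and 32.7% of all promoters. The CCAAT box CCAAT was found in 3 of 8 and 33.8%. These matches are letters in a window and say nothing of binding. No promoter of Egr1 or Ier2 was searched. Bases outside the window were not searched either, so a motif not found here may lie elsewhere at the gene.

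The first comparison asked which members differed between the IZ and sham. Atf3, Fosl2 and Klf6 were higher in the IZ, by 4.47-fold, 1.96-fold and 1.75-fold, whereas Klf4 was 2.17-fold and Ier2 1.67-fold lower. No call was made for Fos, Egr1, Jun or Junb. Fosb had too few counts to enter the test. Of the 9 members tested 3 were called higher and 2 lower at a Benjamini-Hochberg adjusted p under 0.05 in edgeR's quasi-likelihood test, and 4 were not called. Among all 12301 genes tested the test called 69.5%, with 36.3% higher and 33.1% lower. The median log2 fold change was -0.36 over the 9 members and 0.05 over all genes.

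**Figure D1:**
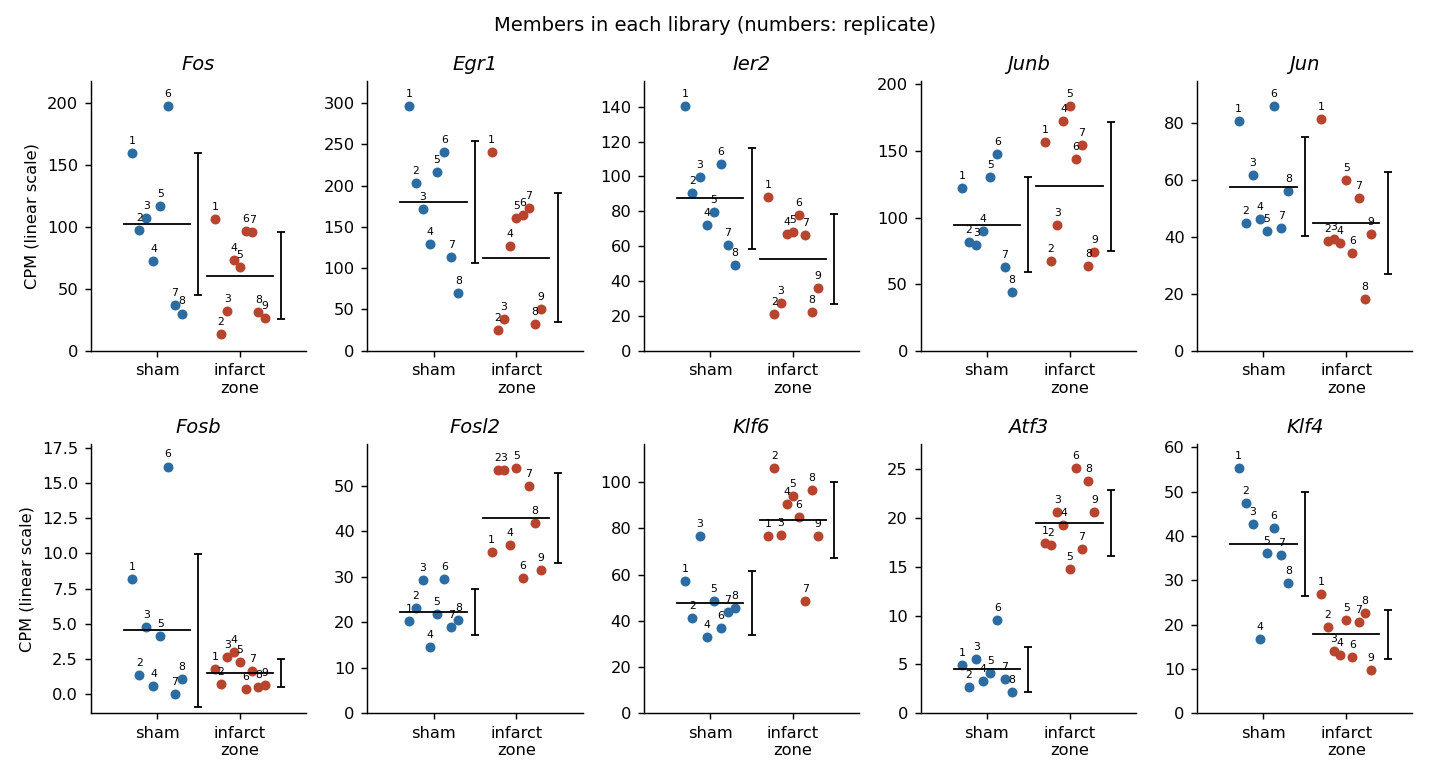
Level of each of the 10 members in every library, in CPM on a linear scale, with sham in blue and infarct zone in red. Small numbers give the replicate, horizontal lines the mean and vertical bars the SD (n = 8 and 9). For Atf3 and Fosl2 all 9 infarct zone libraries lie above every sham library, and for Fos, Egr1, Ier2 and Junb infarct zone replicates 2, 3, 8 and 9 are the lowest of their group.

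Among the FOS genes, Fos (ENSMUSG00000021250, chromosome 12, 85473890 to 85477273) encodes the subunit that is induced first and lasts shortest. In sham its lowest, median and highest levels were 30.0, 102 and 197.7 CPM, and in the IZ 13.8, 67.4 and 106 CPM. The groups overlapped widely, with 2 of 9 IZ libraries below every sham library and 4 of 8 sham libraries above every IZ library. Sham libraries averaged 102 ± 57.5 CPM (SD, n = 8) and IZ libraries 60.3 ± 35.0 CPM (SD, n = 9). The log2 fold change of -0.77 ± 0.38 (SE) did not pass the test (adjusted p = 0.0734). Without IZ replicate 1, the library with the highest Fos level of its group, it was -0.96 ± 0.34 (SE) and was called (edgeR adjusted p = 0.0145), and Fos was also called without sham replicate 7 or 8.

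Fosl2 (ENSMUSG00000029135, chromosome 5, 32135801 to 32157842) encodes FRA2, a longer-lived FOS protein without the strong activation domain of FOS. It ranged from 14.5 over a median of 21.1 to 29.4 CPM in sham and from 29.8 over 41.8 to 53.8 CPM in the IZ. All 9 IZ libraries thus lay above every sham library, although the lowest IZ library (replicate 6) and the highest sham library (replicate 6) almost touched. Its log2 fold change was 0.97 ± 0.16 (SE) with an edgeR adjusted p of 1.11e-05. Such separation in either direction was seen in 2 of the 9 members and in 33.1% of all genes tested.

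Fosb (ENSMUSG00000003545, chromosome 7, 19302696 to 19310051) had 0 to 22 counts per library in sham and 1 to 16 in the IZ. Sham replicates 6 and 1 held 16.2 and 8.21 CPM, the other sham libraries 0 to 4.75 CPM, and the IZ libraries 0.363 to 2.97 CPM. High values were thus found in single sham hearts. Without the filter on low counts its log2 fold change was -1.35 ± 0.55 (SE, edgeR adjusted p = 0.0464), and DESeq2 gave -1.54 (adjusted p = 0.0341).

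Of the JUN genes, Jun (ENSMUSG00000052684, chromosome 4, 95049034 to 95052222) encodes a subunit that can also pair with itself. Its lowest, median and highest levels were 41.9, 51.2 and 86.0 CPM in sham and 18.1, 39.1 and 81.2 CPM in the IZ. The highest IZ value was that of replicate 1 and the next 60.0 CPM, and 6 of 9 IZ libraries lay below every sham library. With all libraries the log2 fold change was -0.36 ± 0.21 (SE, edgeR adjusted p = 0.138), and without IZ replicate 1 it was -0.55 ± 0.18 (SE, adjusted p = 0.00776).

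Junb (ENSMUSG00000052837, chromosome 8, 84974484 to 84978718), whose product pairs with FOS proteins and can restrain JUN, went the other way. It ran from 43.9 over 85.6 to 147.8 CPM in sham and from 63.5 over 143.8 to 184 CPM in the IZ. In the IZ 4 of 9 libraries lay above every sham library, while IZ replicates 2, 3, 8 and 9 held 63.5 to 94.1 CPM, within the range of sham. The log2 fold change of 0.38 ± 0.25 (SE) was not called (edgeR adjusted p = 0.172). On the opposite strand Jun overlaps Junos and Junb overlaps Prdx2. How the counting treated strand is not given in the sources used here, so a part of these counts is uncertain.

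Atf3 (ENSMUSG00000026628, chromosome 1, 191170296 to 191218039), a target of the integrated stress response that mostly represses its own targets, showed the largest change of the members. Sham libraries averaged 4.49 ± 2.32 CPM (SD, n = 8) and IZ libraries 19.5 ± 3.37 CPM (SD, n = 9). In sham the lowest, median and highest values were 2.22, 3.80 and 9.56 CPM, on 4 to 13 counts per library, and in the IZ 14.7, 19.2 and 25.1 CPM, on 26 to 125 counts. The lowest IZ heart was therefore above the highest sham heart, and the next sham value was 5.54 CPM. Its log2 fold change was 2.16 ± 0.21 (SE) with an edgeR adjusted p of 5.85e-09. The small RNA gene Gm24748 overlaps Atf3 on the opposite strand.

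Among the zinc finger genes, Egr1 (ENSMUSG00000038418, chromosome 18, 34859823 to 34864984), a factor downstream of ERK and SRF, ran from 70.0 over a median of 187.7 to 297 CPM in sham. In the IZ it ran from 24.8 over 126.9 to 241 CPM. Here 4 of 9 IZ libraries lay below every sham library, and the other 5 lay within the range of sham. The log2 fold change was -0.69 ± 0.38 (SE, edgeR adjusted p = 0.116), and without IZ replicate 1 it was -0.96 ± 0.34 (SE, adjusted p = 0.0126).

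Klf4 (ENSMUSG00000003032, chromosome 4, 55527143 to 55532466), known from the endothelium and from reprogramming to pluripotency, fell by 1.12 ± 0.21 (SE) on the log2 scale (edgeR adjusted p = 4.73e-05). Its lowest, median and highest levels were 16.7, 39.1 and 55.3 CPM in sham and 9.80, 19.5 and 26.8 CPM in the IZ. Sham replicate 4 held the 16.7 CPM, and the other 7 sham libraries lay above every IZ library. Klf6 (ENSMUSG00000000078, chromosome 13, 5861482 to 5870394), a factor induced by injury, rose by 0.81 ± 0.16 (SE) on the log2 scale (edgeR adjusted p = 7.61e-05). It held 32.9, 44.7 and 76.8 CPM in sham and 48.8, 85.0 and 106 CPM in the IZ as lowest, median and highest values. Sham replicate 3 was high and IZ replicate 7 low, and 7 of 9 IZ libraries lay above every sham library.

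Ier2 (ENSMUSG00000053560, chromosome 8, 84661331 to 84662852), which follows growth factor signals, fell by 0.74 ± 0.27 (SE) on the log2 scale (edgeR adjusted p = 0.0189). Its lowest, median and highest levels were 49.4, 85.0 and 140.7 CPM in sham and 20.9, 66.2 and 88.4 CPM in the IZ. In the IZ 4 of 9 libraries lay below every sham library. The call was lost without sham replicate 1, the highest sham library (log2 fold change -0.61, adjusted p = 0.0530).

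The direction of 4 members depended on the scaling between libraries. The main scaling (TMM, the trimmed mean of M values) left the median of all genes at 0.05, while total counts alone moved it to 1.14 on the log2 scale. With total counts alone the log2 fold changes of Fos (0.28), Egr1 (0.35), Ier2 (0.31) and Jun (0.68) turned positive and Jun was then called higher (edgeR adjusted p = 0.00258), that of Klf4 was -0.05 and no longer called, and Junb was also called higher (1.46). Fos, Egr1, Ier2, Jun and Klf4 stayed below the shifted median of 1.14 and Junb above it. A change of scaling moves all genes by nearly the same amount, so this order was fixed beforehand. It does not settle the direction of these genes. Atf3 (3.25), Fosl2 (2.06) and Klf6 (1.89) were called higher under both.

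**Figure D2:**
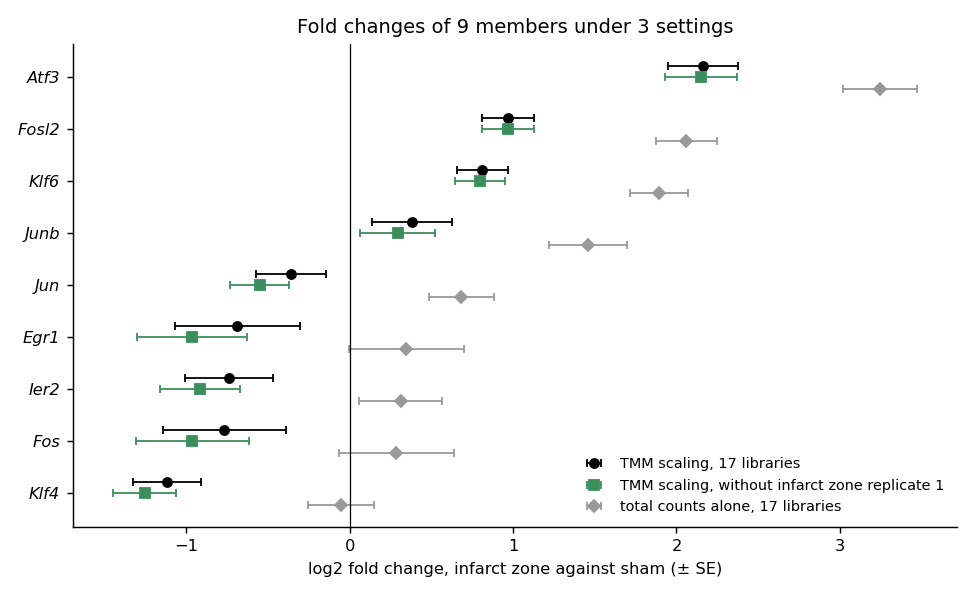
Log2 fold change of the infarct zone against sham for the 9 tested members, with the SE as bars, under the main scaling (black), without infarct zone replicate 1 (green) and with total counts alone (grey). Atf3, Fosl2 and Klf6 lie above 0 in all 3 settings, while Fos, Egr1, Ier2 and Jun lie below 0 in the first 2 and above 0 with total counts alone.

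The composition of the FOS and JUN families within a library does not depend on the scaling. Of the counts of the 4 FOS genes, Fos made up 76.3 ± 9.45% in sham libraries (SD, n = 8) and 52.7 ± 18.6% in IZ libraries (SD, n = 9). Fosl2 made up 21.0 ± 10.5% in sham and 44.8 ± 18.1% in the IZ. In IZ replicates 2, 3, 8 and 9 Fosl2 exceeded Fos, most in replicate 2 with 20.0% Fos and 77.6% Fosl2, and in every sham library Fos exceeded Fosl2. In the other IZ libraries Fos made up 54.6 to 75.5%, mostly within the 58.1 to 84.9% of sham. Both differences passed an exact two-sided permutation test over all 24310 assignments of libraries to groups (adjusted p = 0.0124 for each, over 7 shares). As Fos and Fosl2 make up nearly all FOS family counts, their shares mirror each other and the differences are not independent. Fosl1, a FOS gene not among the members whose product FRA1 is a target of AP-1 itself, had no count in any of the 8 sham libraries. That is 0 of 1703 FOS family counts, which allows a pooled share of up to 0.176% and 0.872 to 3.23% in single libraries, counting error only. In the IZ Fosl1 took 1.06 ± 0.712% (SD, n = 9), with counts in 8 of 9 libraries (exact permutation, adjusted p = 0.00288, and 0.0624 with medians in place of means). The share of Fosb was 2.65 ± 2.18% in sham and 1.43 ± 0.868% in the IZ (exact permutation, adjusted p = 0.165).

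Within the JUN family the mean share of Junb was higher and that of Jun lower in the IZ. Of JUN family counts, Junb made up 52.0 ± 8.10% in sham libraries (SD, n = 8) and 63.0 ± 8.05% in IZ libraries (SD, n = 9), with an adjusted p of 0.0183 in the exact permutation test, and of 0.0624 with medians in place of means. Jun made up 33.1 ± 7.94% and 23.4 ± 5.42% (exact permutation, adjusted p = 0.0150). The shares of Junb and Jun are parts of the same whole, so their differences are not independent. The share of Jund, the constitutive JUN gene, was 14.8 ± 5.45% and 13.6 ± 3.95% (exact permutation, adjusted p = 0.608). The JUN family held 197 to 407 counts per library in sham and 194 to 1203 in the IZ, and the FOS family 93 to 344 and 144 to 577, which limits the precision of single shares.

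**Figure D3:**
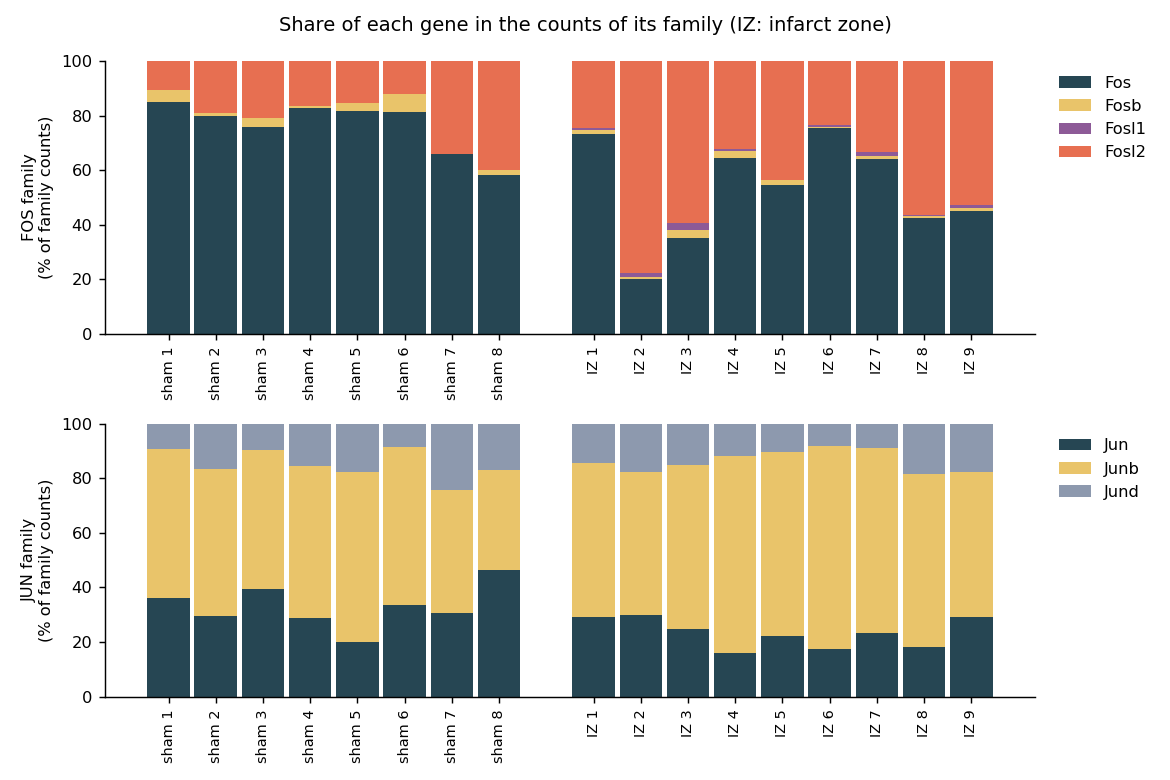
Percent of FOS family counts (top) and JUN family counts (bottom) that each gene took in every library, as stacked bars that sum to 100. Fos takes 58.1 to 84.9% in sham libraries and 20.0 to 75.5% in those of the infarct zone (IZ), and Fosl1 appears in infarct zone libraries only.

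The members differed in how much they varied between hearts of 1 group. Egr1 and Fos had a higher edgeR dispersion, a measure of the spread between replicates beyond counting error, than 98.6% and 98.4% of the 12301 genes tested. Ier2 (93.8%), Junb (91.0%) and Jun (83.7%) followed, whereas Klf6 (55.0%), Fosl2 (48.8%) and Atf3 (16.5%) were near the middle or below it, and Klf4 was at 78.3%. From the lowest to the highest library Fos spanned 6.59-fold in sham and 7.71-fold in the IZ, and Egr1 4.25-fold and 9.73-fold. In the IZ replicate 1 was the highest for both (106 and 241 CPM). The next IZ values were 96.2 CPM for Fos and 173.5 CPM for Egr1. Atf3 spanned 4.30-fold in sham and 1.70-fold in the IZ. Whether the spread itself differed between groups was tested by exact permutation of the mean absolute deviation, and 0 of 10 members passed the adjusted threshold (smallest adjusted p = 0.254). At an unadjusted p under 0.05 there was 1, Fosb, which was also called with a prior count of 5 in place of 1 (exact permutation, adjusted p = 0.0448).

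Covariation of the members was examined over the 8 sham hearts alone, so that infarction did not enter. Of 45 pairs 44 had a positive Pearson r of log2 CPM and the median r was 0.61, against 49.8% positive and a median of -0.002 over all 75651150 pairs of tested genes. An r of at least 0.8 was found in 13.3% of member pairs and in 1.31% of all pairs. After Benjamini-Hochberg adjustment over the 45 pairs 6 passed an exact permutation test of all 40320 pairings, all among Fos, Egr1, Ier2, Junb and Fosb.

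The strongest relation in sham was Fos with Egr1, with r = 0.94 and Spearman's rho = 0.95 (n = 8, exact permutation adjusted p = 0.0138 for r and 0.0513 for rho). Egr1 with Ier2 followed (r = 0.93, rho = 0.90), then Fos with Junb (r = 0.92, rho = 0.88), Fos with Ier2 (r = 0.91, rho = 0.90), Junb with Egr1 (r = 0.90, rho = 0.86) and Fos with Fosb (r = 0.85, rho = 0.90). Their adjusted p values were 0.0138 to 0.0474 for r and 0.0513 to 0.0689 for rho (exact permutation), so that 0 of 45 pairs passed by rank. Without the 2 libraries farthest from the median of the first-named gene r was 0.76 to 0.96 in these pairs, and 0.65 to 0.91 without those farthest from the median of the second-named gene. Junb with Ier2 was not called in sham (r = 0.77, exact permutation adjusted p = 0.106). The number of calls changed when single hearts were left out. Sham replicates 7 and 8 were low, with 36.6 and 30.0 CPM of Fos where the other sham libraries held 72.5 to 197.7 CPM. Leaving out sham replicate 7 left 0 pairs called, sham replicate 8 left 1, sham replicate 6 left 2 and sham replicate 3 left 3. Over the 6 pairs of Fos, Egr1, Ier2 and Junb r was 0.77 to 0.94 with all libraries, 0.74 to 0.96 without sham replicate 7, 0.75 to 0.95 without replicate 6, 0.82 to 0.95 without replicate 3 and 0.59 to 0.91 without replicate 8.

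**Figure D4:**
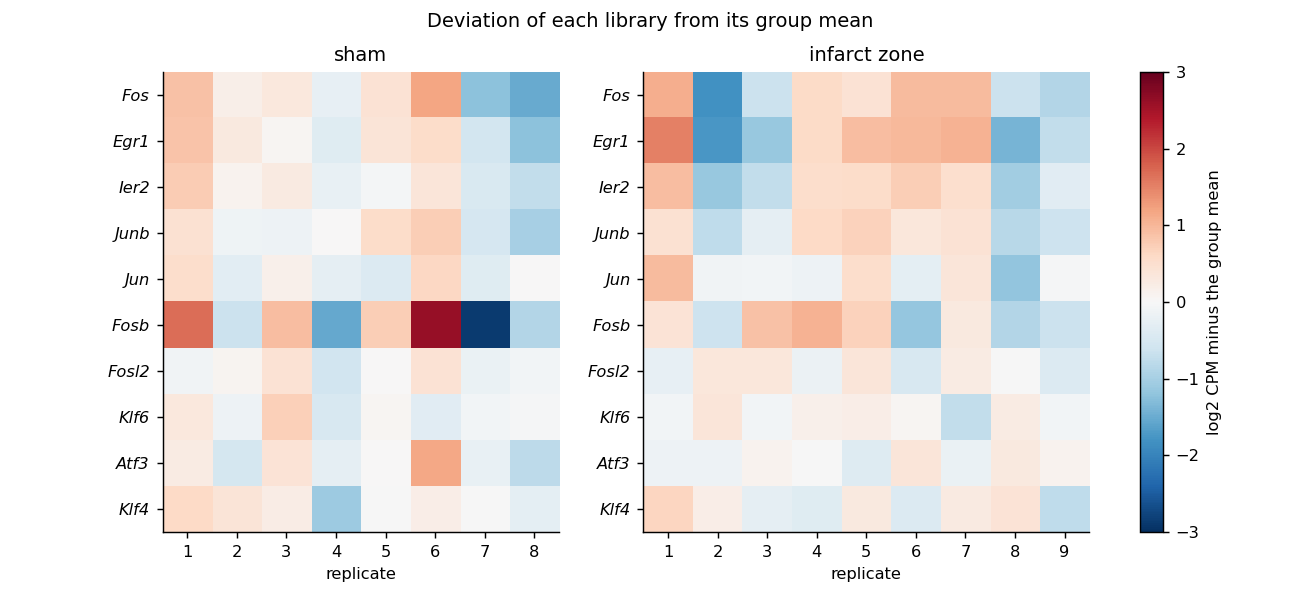
Deviation of each library from the mean of its own group, in log2 CPM, for the 10 members in sham (left, n = 8) and in the infarct zone (right, n = 9), with red above and blue below the mean. In sham replicates 7 and 8 are the lowest in Fos, Egr1, Ier2 and Junb, and in the infarct zone replicates 2, 3, 8 and 9 are the lowest in the same 4 genes.

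In the IZ the same 4 genes Fos, Egr1, Ier2 and Junb split the libraries into separate sets. Replicates 2, 3, 8 and 9 were the lowest 4 libraries in each of them, and a gap followed. For Fos the fourth lowest value was 31.8 CPM and the fifth 67.4 CPM, for Egr1 50.7 and 126.9 CPM, for Ier2 36.2 and 66.2 CPM and for Junb 94.1 and 143.8 CPM. Total counts of the low libraries were 4738307 (replicate 2), 4053976 (replicate 3), 1393277 (replicate 8) and 2124172 (replicate 9). Those of the other 5 IZ libraries were 1237675 to 3394511. The lowest 4 libraries of the other members were not the same set. Fosb shared 3 of them (replicates 2, 6, 8 and 9), with 0.696 CPM in the fourth lowest and 1.63 CPM in the fifth lowest library, on 1 to 16 counts, and Jun shared 2 (replicates 2, 4, 6 and 8), without such a gap (38.4 and 39.1 CPM). The lowest 4 IZ libraries were replicates 1, 4, 6 and 9 for Fosl2, 1, 2, 5 and 7 for Atf3, 3, 4, 6 and 9 for Klf4 and 1, 3, 7 and 9 for Klf6. Of 45 pairs 6 passed the exact permutation test over the IZ libraries, all among Fos, Egr1, Ier2 and Junb. By rank 3 passed, those among Fos, Egr1 and Ier2. The pairs of Junb with these genes did not pass by rank (exact permutation adjusted p = 0.194 to 0.331 for rho). By r, without IZ replicate 1 there were 2, and without any other single IZ library 1 to 3. Because these genes put the libraries into sets of 4 and 5 hearts, no r between 2 of them is given over all 9, and each set is too small for one of its own. Of all IZ pairs 25 of 45 were positive, against 49.8% of all gene pairs. The median r was 0.14 over the IZ pairs of members and -0.0015 over all gene pairs. An r of at least 0.8 was found in 13.3% and 1.69%, and the member pairs that reached it were those of the 4 genes that split the libraries.

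**Figure D5:**
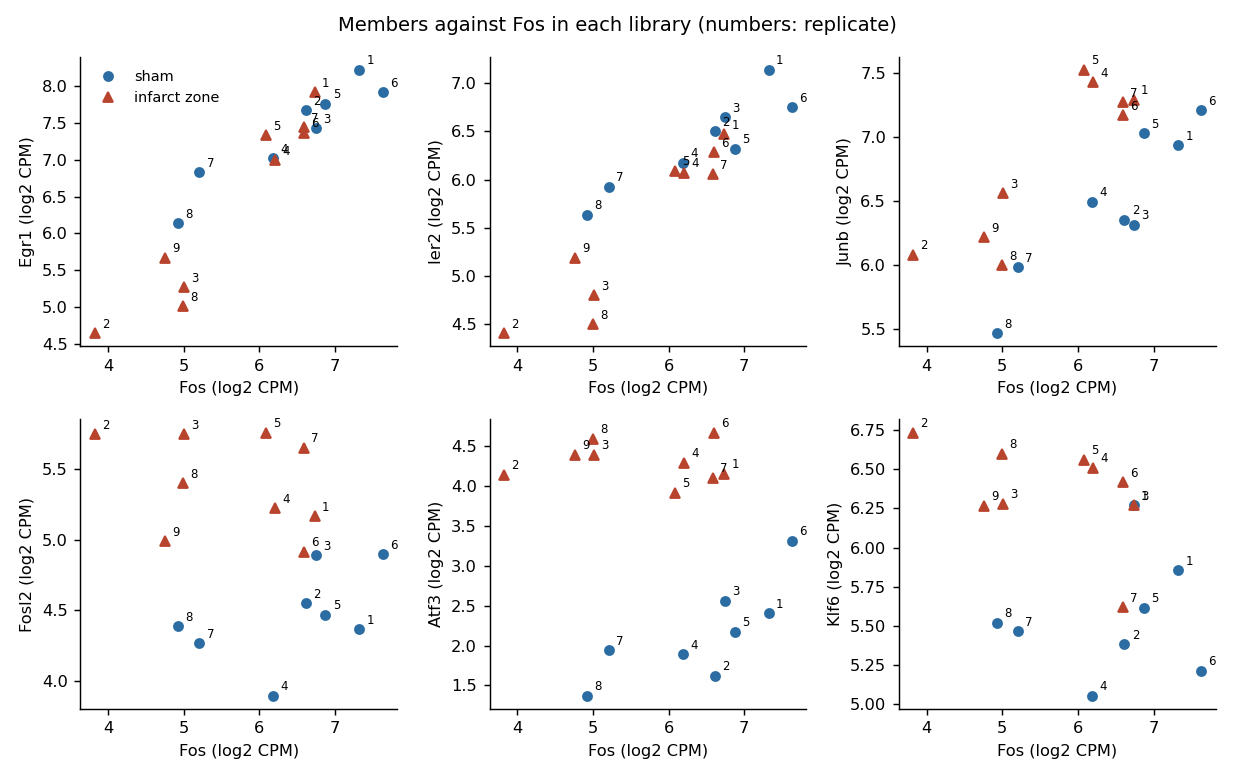
Egr1, Ier2, Junb, Fosl2, Atf3 and Klf6 against Fos in each library, in log2 CPM, with sham as blue circles and infarct zone as red triangles (numbers: replicate). Infarct zone replicates 2, 3, 8 and 9 lie apart at low Fos, Egr1, Ier2 and Junb, while Atf3 in the infarct zone stays above every sham library at low and at high Fos.

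The levels of the members were also set against total counts, the mitochondrial share and the summed fibroblast and macrophage markers of each library, within each group. Of 80 such relations 0 passed the exact permutation test after adjustment (smallest adjusted p = 0.477), and 3 had an unadjusted p under 0.05. The closest was Klf6 with macrophage markers in sham (r = 0.86, rho = 0.88, n = 8, unadjusted exact permutation p = 0.00987 for r and 0.00724 for rho), and its r was 0.50 without the 2 farthest libraries. Jun with macrophage markers in the IZ followed (r = -0.83, rho = -0.73, n = 9, unadjusted exact permutation p = 0.0119 for r and 0.0311 for rho), and its r was -0.51 without the 2 farthest libraries. The third was Egr1 with macrophage markers in the IZ (r = -0.61, rho = -0.67, n = 9, unadjusted exact permutation p = 0.0458 for r and 0.0589 for rho). Its r was -0.32 without the 2 farthest libraries. Over 8 or 9 libraries, with 80 relations adjusted together, only close relations could pass, so 0 calls does not show that they are unrelated.

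The genes most alike to the members were sought among 9346 other genes that averaged 10 CPM or more, by their mean Pearson r with the 9 tested members over the 17 libraries centred on the group means. Nr4a1, an orphan nuclear receptor and immediate early gene, came first with a mean r of 0.55. Apold1, an endothelial early gene, Btg2, an antiproliferative early gene, Rara, the retinoic acid receptor alpha, and Dusp1, a phosphatase that switches off MAP kinases, followed at 0.51 each. Nr4a1 ran from 45.0 to 269 CPM in sham and from 3.10 to 70.7 CPM in the IZ, and its lowest 4 IZ libraries were again replicates 2, 3, 8 and 9, which was not so for the other 4 of these genes. It fell by 2.20 ± 0.44 (SE) on the log2 scale, Dusp1 by 1.30 ± 0.29 (SE), Btg2 by 1.36 ± 0.32 (SE) and Apold1 by 1.26 ± 0.36 (SE), with edgeR adjusted p values of 1.06e-04 to 0.00329. Rara rose by 0.60 ± 0.19 (SE, edgeR adjusted p = 0.00796). These genes were picked by their likeness to the members in these libraries, so the low libraries that Nr4a1 shares are not a further observation.

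Further genes of the pathway were taken from fixed lists and counted in the same test, beside the 69.5% of all genes called. Among kinases and factors upstream of immediate early genes 6 were higher, 7 lower and 7 not called, with a median of -0.18. Mapk7 (ERK5) was highest at 1.99 ± 0.29 (SE, log2) and Mapk10, the JNK3 gene, lowest at -3.67 ± 0.45. Srf itself was lower (-0.81) and its cofactor Mrtfa higher (1.46). Among feedback inhibitors 7 were higher, 6 lower and 2 not called (median -0.04), from Zfp36l2, which destabilizes mRNA, at 1.11 ± 0.12 to Dusp8, a phosphatase of JNK and p38, at -1.73 ± 0.30.

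Of the other subunits of AP-1 and the leucine zipper proteins that pair with them, 4 were higher, 2 lower and 4 not called (median 0.34). Among all genes tested 36.3% were higher and 33.1% lower, so such counts are not read as a trait of a list. Batf, an AP-1 factor of immune cells, was highest at 3.07 ± 0.52 (SE, log2), and Mafk was lowest at -0.51 ± 0.20. Of the other EGR, KLF and NR4A factors 4 were higher, 5 lower and 3 not called (median 0.12). Klf16 was highest at 1.16 ± 0.21 and Klf15, a metabolic regulator of cardiomyocytes, lowest at -3.90 ± 0.35. Egr2, the nearest relative of Egr1 in the list, was higher at 0.84 ± 0.34 (edgeR adjusted p = 0.0340).

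Among other immediate early genes 12 were higher, 5 lower and 10 not called (median 0.21), beside 36.3% higher and 33.1% lower of all genes. Id2, an inhibitor of helix-loop-helix factors, was highest at 2.06 ± 0.21 (SE, log2) and Btg2 lowest at -1.36 ± 0.32. In the integrated stress response, the pathway that induces Atf3, 6 genes were higher, 1 lower and 3 not called (median 0.41). Asns, an asparagine synthetase induced by ATF4, was highest at 2.12 ± 0.30 and Ppp1r15a, which reverses the response and is itself induced early, lowest at -0.57 ± 0.19. Ddit3, the gene of CHOP, was not called (-0.19, edgeR adjusted p = 0.244).

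The textbook targets of AP-1, EGR1 and ATF3 were mostly higher, with 11 higher, 1 lower and 3 not called and a median of 1.41. Among all genes tested 36.3% were higher. Of the 15 tested 10 did not overlap between the groups, against 33.1% of all genes. The list was chosen with earlier results of these data known, so these counts are a description and not independent evidence. Spp1, the gene of osteopontin, was highest at 5.45 ± 0.45 (SE, log2) and F3, the tissue factor gene, lowest at -1.92 ± 0.30. The fibroblast and macrophage markers rose in the same libraries, and their part in the change of the targets was not tested.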

How the data were processed

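The authors isolated total RNA with DNase treatment, prepared 3' end libraries (MACE) with molecular identifiers and removed PCR duplicates. Cutadapt trimmed the reads, which were mapped to mm10, and HTSeq counted them. Bowtie2 and bcl2fastq are named in the submitters' processing notes, and the annotation release is not given in the sources used here. The deposited values are raw counts per gene, not normalized. Totals of 1237675 to 4738307 per library limit the precision of low genes such as Fosb, Fosl1 and, in sham, Atf3, and intervals and limits cover counting error only. All pairs of libraries differed by at least 2.41 times the variance of sampling, so none was a copy.

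Of 31647 features 31521 matched names in GENCODE for GRCm38, the build of mm10, and 35 merged features were kept for library sizes without a name. Groups came from the sample titles. The test across genes was that of edgeR 4.0.16 (R 4.3.3), using filterByExpr with a minimum of 10 counts, TMM scaling, two-sided quasi-likelihood F-tests without covariates and Benjamini-Hochberg adjustment over all 12301 genes tested at 0.05. Standard errors came from the F statistic. CPM used TMM-scaled library sizes and log2 CPM a prior count of 1. Exact two-sided permutation tests used all 24310 splits for differences and all 40320 (sham) or 362880 (IZ) pairings for correlations. As alternatives edgeR was scaled by size factors of DESeq2, by the upper quartile or by total counts, and the Wald test of DESeq2 1.42.0 was run. Further alternatives were no filter, genes of at least 50 counts on average, libraries thinned to the smallest total, a prior count of 5, medians, ranks, the replicate number as a block and each library left out in turn. On data simulated for the IZ against sham over 12301 genes, with 200 changed by 1 on the log2 scale, 89.5% of the changed genes were called and 5.79% of calls were unchanged genes.

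The genes named are the members, the highest and lowest tested gene of each list and the 5 non-members most alike to the members. A few others (Egr2, Srf, Mrtfa, Ddit3, Zfp36 and the ratios of Junb) were chosen after their values were seen. The members and lists were chosen with earlier results of these data known. Python 3.11.15, NumPy 2.4.6, pandas 2.3.3, SciPy 1.17.1 and Matplotlib 3.10.9 were used. Labels gave no batch, so no comparison was repeated within batches.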

Additional observations from a re-analysis of the deposited data

Results flagged for a closer look

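Of 36 groups of library values screened for a sample far from the others of its group, 2 were flagged, and chance flags about 1 in 20 groups. Atf3 stood at 9.56 CPM in sham replicate 6, where the other sham libraries held 2.22 to 5.54 CPM. That library also held the highest sham levels of Fos, Fosb, Fosl2, Jun and Junb, and Atf3 remained called without it (log2 fold change 2.37). The mitochondrial share was 19.5% in IZ replicate 1, against 4.22 to 6.78% in the other IZ libraries. The same library had the highest IZ levels of Fos, Egr1, Ier2, Jun and Klf4, and without it Fos, Egr1 and Jun were called lower.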

How the results depend on the processing

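Atf3, Fosl2 and Klf6 were called higher under every alternative that tested them (24 for Atf3, which a minimum mean of 50 counts left untested, and 25 each for Fosl2 and Klf6), with log2 fold changes of 2.03 to 3.25, 0.89 to 2.06 and 0.74 to 1.89. Klf4 was called in 24 of 25 and Ier2 in 23 of 25. With total counts alone the values were 0.28 for Fos, 0.68 for Jun, 0.35 for Egr1, 0.31 for Ier2, -0.05 for Klf4 and 1.46 for Junb, 10727 genes were called, 85.8% of them higher (52.3% in the main test), and 10 AP-1 partners were called. Upper quartile scaling gave 57.6% higher calls and the same 5 members. A minimum mean of 50 counts left 5239 genes called, with 3 AP-1 partners, 5 EGR, KLF and NR4A factors, 8 feedback inhibitors and 1 gene of the integrated stress response. Without the filter on low counts Fos was called (-0.72, edgeR adjusted p = 0.0498), as was Fosb. Leaving out each library in turn gave 7962 to 8614 genes called, 4 to 8 members (8 without IZ replicate 1), 3 to 7 AP-1 partners (3 without IZ replicate 7), 7 to 9 EGR, KLF and NR4A factors, 11 to 13 feedback inhibitors and 4 to 7 genes of the integrated stress response (4 without IZ replicate 3). Log2 fold changes were then -0.96 to -0.57 for Fos, -0.55 to -0.25 for Jun, -0.96 to -0.53 for Egr1 and -0.91 to -0.60 for Ier2. With medians in place of means the share of Fosl1 differed by 0.855 and that of Junb by 9.10 percentage points, both with an adjusted p of 0.0624 (exact permutation). The Jund difference turned to 0.983 with thinning and ran from -2.10 to 0.160 without single libraries, called in none. The other 4 shares kept their direction and call. The spread test called 1 member, Fosb, with a prior count of 5. In sham 3 pairs were called with thinning, 0 by rank and 0 to 7 without single libraries. In the IZ 3 were called by rank and 1 to 3 without single libraries. The cause of these changes was not tested.

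The labels give both groups the replicate numbers 1 to 8, but these share only a number. Deviations of same-numbered libraries from their group means correlated at -0.22 to 0.13, and 1 of 8 libraries correlated best with its own number. With the replicate number as a block 8079 genes and 7 members were called, Junb at 0.44 (edgeR adjusted p = 0.0236) and Egr1 at -0.83 (adjusted p = 0.0310) in addition to the 5 of the main test.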

Other observations

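After the values were seen, the counts of Junb were set against those of the members that varied with it, a ratio within each library that no scaling between libraries alters. The log2 ratio of Junb to Fos averaged 0.04 ± 0.48 over sham libraries (SD, n = 8) and 1.20 ± 0.56 over IZ libraries (SD, n = 9), with 6 of 9 IZ libraries above every sham library. Junb to Egr1 averaged -0.90 ± 0.30 and 0.44 ± 0.71, with 8 of 9 IZ libraries above every sham library. Junb to Ier2 averaged 0.09 ± 0.37 and 1.31 ± 0.34, with 9 of 9 IZ libraries above, also those with low Ier2. The adjusted p values over the 3 ratios were 5.76e-04, 3.70e-04 and 1.23e-04 in exact two-sided permutation tests over all 24310 assignments. Since the ratios were picked from these data, they are a description and not independent evidence.

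The product of Zfp36 binds mRNA of early response genes and speeds its decay. Among the 9346 other genes that averaged 10 CPM or more, its centred levels were most like those of Fos alone (Pearson r = 0.90 over 17 libraries). Zfp36 averaged 58.5 ± 23.1 CPM over sham libraries (SD, n = 8) and 55.6 ± 21.6 CPM over IZ libraries (SD, n = 9). Its lowest 4 IZ libraries were replicates 2, 3, 8 and 9, as in Fos, Egr1, Ier2, Junb and Nr4a1. It was not called (log2 fold change -0.08 ± 0.24 (SE), edgeR adjusted p = 0.768). Over the 8 sham libraries alone its r with Fos was 0.82, lower than that of Nr4a1 (0.92), Btg2 (0.90) or Dusp1 (0.86). The r over 17 libraries takes in the split of the IZ libraries into sets. As Zfp36 was picked by its likeness to Fos in these libraries, the shared low libraries are not a further observation.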
